A study of Rattus norvegicus with 4 samples.

Results

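The genes that encode the protein components of the cytosolic ribosome were followed in the spinal dorsal horn of male rats, aged 6 weeks, on 4 two-colour Agilent oligonucleotide arrays. A gene was a member when the accession of its probe mapped to a rat gene symbol of Rpl or Rps with a number, or to Rplp0, Rplp1, Rplp2 or Rpsa. The Rps6k kinases, the mitochondrial Mrp genes and the LOC and RGD symbols were left out. The rule gave 87 genes on 151 probes, 54 for the large and 33 for the small subunit, of 22821 genes tested in all. Among the 87 are 10 whose symbols carry a copy number, such as Rpl37l1, Rpl37al3 and Rps4y2, and counting these was decided after it was seen which symbols the array holds.

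On 2 arrays the Cy5 channel held RNA from oxaliplatin-treated rats, and on 2 arrays it held RNA from vehicle-treated rats, both taken on day 10. Oxaliplatin is a platinum chemotherapy drug known for painful peripheral neuropathy. On every array the Cy3 channel held dorsal horn RNA that the labels call untreated, again from male rats of that age, and no dyes were swapped. The labels call the 2 arrays of a group biological replicates and give neither dose nor route, nor how many rats went into a sample. The 2 arrays of each group lay on a slide of their own, so group and slide cannot be told apart.

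The cytosolic ribosome has a small subunit, which reads the messenger RNA, and a large subunit, which joins amino acids. Nearly every cell expresses all of its proteins at high level, and nervous tissue also translates in axons and dendrites. Messenger RNAs for ribosomal proteins typically begin with a cytosine followed by a run of pyrimidines, the 5′ terminal oligopyrimidine tract, through which mTOR signalling controls their translation. The genes have left many processed pseudogenes in mammalian genomes: the RefSeq table for GRCr8 lists 877 pseudogenes named for 76 of the 87 members. A probe may not separate a gene from such copies, and the probe sequences were not analysed here.

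The start of the transcript is shown first for 9 members that the results turn on, because the tract marks this gene family. Each window runs from 10 bases before the annotated start to 20 bases from it, 5′ to 3′ on the strand of the gene, from RefSeq on GRCr8. Capitals mark a cytosine at the annotated start and the pyrimidines that follow it without a break. The first 6 hold such a tract, and Rpl24, Rpl22l1 and Rps27l do not at this position.
Rpl37a: cccgttgcgtCTCTTCCTCTTCgggcttgg
Rpl35a: tcttgccttcCTCTTTCCgccatcttggcg
Rpl34: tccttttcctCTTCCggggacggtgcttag
Rpl22: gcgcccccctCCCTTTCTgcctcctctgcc
Rps26: ccgccgggtcCTCTTTCgagtcttggctcc
Rps27: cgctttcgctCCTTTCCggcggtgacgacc
Rpl24: tagggaggagattctctaccctataaggtg
Rpl22l1: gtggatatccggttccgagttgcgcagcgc
Rps27l: ttcatttgtcattatttgtggtgtccagag

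The Rpl37a window lies on the plus strand at chr9:81748081-81748110, and that of Rpl22 on the plus strand at chr5:168117951-168117980. The Rpl35a window lies on the minus strand at chr11:81235002-81235031, that of Rpl34 on the minus strand at chr2:221962264-221962293, and that of Rps26 on the minus strand at chr7:1643385-1643414. The Rps27 window is on the minus strand at chr2:177964587-177964616. Without a tract, the Rpl24 window is on the minus strand at chr11:58128386-58128415, that of Rpl22l1 on the plus strand at chr2:113683186-113683215, and that of Rps27l on the plus strand at chr8:76443648-76443677.

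A promoter entry was matched for 71 of the 87 members. A cytosine at the annotated start followed by at least 4 pyrimidines was present in 23 of these 71 (32.4%), against 2.63% of all 33469 promoters in the table. Within 5 bases of the annotated start, the tract was found in 56.3% of the members and in 17% of all promoters. The ETS-family motif CCGGAAG, searched on both strands of the 250 bases before to 50 bases after the start, was in 28.2% of the members and in 8.75% of all promoters. The YY1 motif AAGATGGC, searched the same way, was in 7.04% and 3.17%, and the TATA motif TATAAA in 14.1% and 14.2%. These are matches of letters and no measure of binding.

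All 87 members were well above background in Cy5 on every array, and 85 in Cy3, and no spot of a member was saturated in either channel. Over their 254 spots, the median raw signal per array was between 73827 and 82473 in Cy5 and between 15431 and 30567 in Cy3.

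Several facts of the whole series touch these values. Over all spots the median Cy3 signal was 283.5 on oxaliplatin array 2 and 494 to 564 on the other 3. Between 82.6% and 85.4% of probes were well above background in Cy5, and between 76.8% and 88.1% in Cy3. The Cy5 channel also carried transcripts of Schwann cells and sensory ganglion neurons: the 8 markers of that list had ratios above 0 on all 4 arrays, with array medians from 3.70 to 4.54 on the log2 scale. All 7 oligodendrocyte markers had ratios below 0 on all 4 arrays, with medians from -1.73 to -1.03. The part of these cells in the ratios of the members was not tested. Of the 7 dorsal horn neuron markers measured, 3 were above 0 and 3 below 0 on all 4 arrays, while 5 of 6 general neuron markers were above 0 on all 4, with a median ratio of 1.18.

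The first comparison was the Cy5/Cy3 ratio with oxaliplatin against that with vehicle. No ribosomal protein gene and no gene at all passed limma's moderated test at an adjusted p under 0.05 (background 0% of 22821 genes), and the smallest adjusted p among the members was 0.294. At an unadjusted p under 0.05 stood 12 of the 87 members, and 14.6% of all genes. The members nonetheless lay to one side: the ratio was lower with oxaliplatin in 65 of 87, against 48.8% of all genes. The median difference was -0.11 over the members and 0.01 over all genes, on the log2 scale. The 2 groups of arrays did not overlap for 39 members with lower and 2 with higher values, where the background is 22.2% of all genes lower and 27% higher. The count and the lean depend on the scaling. With each array centred on its median in place of the loess curve, 51 members were lower and 36 higher. In that setting 52.9% of all genes were lower. The median also moved with single vehicle arrays, to -0.17 without vehicle array 1 and -0.07 without vehicle array 2. The ratios of glial markers were also mostly higher with oxaliplatin, with a median difference of 0.60 for oligodendrocytes and 0.43 for astrocytes. In each list 6 of 7 markers were higher and 1 lower, and none passed the test. By channel the median differences were -0.17 in Cy5 and -0.72 in Cy3 for oligodendrocytes. For astrocytes they were 0.01 in Cy5 and -0.50 in Cy3. The 3 red blood cell markers had a median ratio difference of 0.58, all with overlapping arrays. The part of those cells was not tested, and in bulk tissue fewer cells of a type and less RNA per cell cannot be told apart.

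The lean was seen in both subunits. For the large subunit, the median ratio of its 54 genes was 0.24 and 0.16 on the 2 oxaliplatin arrays and 0.29 and 0.42 on the 2 vehicle arrays. For the small subunit, the median ratio of its 33 genes was 0.00 and 0.02 with oxaliplatin and 0.05 and 0.26 with vehicle. In each subunit both oxaliplatin medians were below both vehicle medians, although the 2 vehicle arrays differed from each other by 0.13 and 0.21. With median centring this order was lost: the large-subunit medians were 0.95 and 0.94 with oxaliplatin and 0.92 and 1.13 with vehicle, and those of the small subunit 0.79 and 0.73 against 0.73 and 0.96. The ratio was lower with oxaliplatin in 38 large-subunit and 27 small-subunit genes. The arrays of the groups were apart in the lower direction for 22 and 17 of them, and in the higher direction for 2 and 0. On every array the large-subunit median was above that of the small subunit, by 0.24 and 0.14 with oxaliplatin and by 0.24 and 0.16 with vehicle.

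**Figure D1:**
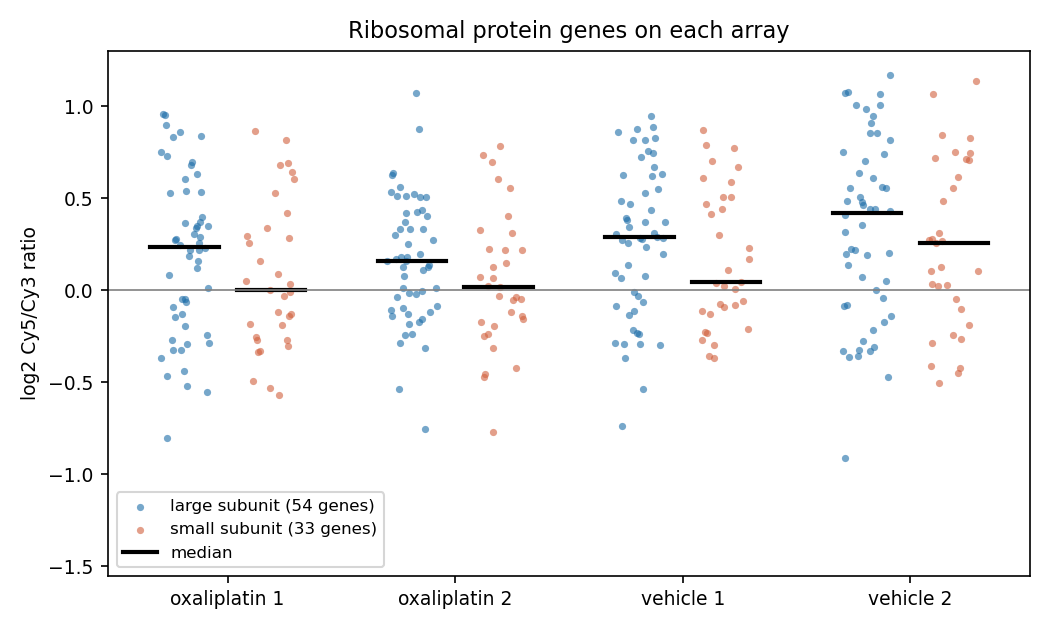
Log2 Cy5/Cy3 ratio of each ribosomal protein gene on each of the 4 arrays, with 1 point a gene, large-subunit genes in blue and small-subunit genes in orange; black bars are the medians over genes. The genes spread over more than a log2 unit on every array, and the medians on the vehicle arrays (0.29 and 0.42 for the large subunit) lie above those on the oxaliplatin arrays (0.24 and 0.16).

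Among large-subunit genes the lowest difference was that of Rpl24, a late-assembling protein near the interface of the subunits, whose gene is at chr11:58122997-58128405. Its ratio was 0.53 and 0.08 on the oxaliplatin arrays and 0.82 and 1.07 on the vehicle arrays. The 2 groups did not overlap, and oxaliplatin array 2 stood lowest. The difference was -0.64 ± 0.18 (standard error, 2 against 2 arrays; limma, adjusted p = 0.294). A second Rpl24 probe, dimmer than this one, gave -0.13.

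Rpl35a encodes a large-subunit protein whose human counterpart is mutated in some patients with Diamond-Blackfan anaemia. Its ratio was 0.68 and 0.33 with oxaliplatin and 0.81 and 1.17 with vehicle. All 4 arrays were above 0, with both vehicle arrays the higher. The difference was -0.49 ± 0.18 (limma, adjusted p = 0.309), and its 3 probes lay between -0.49 and -0.42.

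The next lowest in the large subunit were 2 copies with numbered symbols. The ratio of Rpl37l1 was -0.05 and -0.24 with oxaliplatin and 0.28 and 0.22 with vehicle. The ratio of Rpl37al3 was -0.06 and -0.18 with oxaliplatin and 0.20 and 0.32 with vehicle. On the probes used, both genes were below 0 on the oxaliplatin arrays and above 0 on the vehicle arrays. Their differences were -0.40 ± 0.12 and -0.38 ± 0.12 (limma, adjusted p = 0.300 and 0.302). The 3 probes of Rpl37l1 gave differences between -0.47 and -0.35, but the other probes were above 0 on oxaliplatin array 1, at 0.05 and 0.07. Of the 10 numbered copies, 7 were apart in the lower direction and none in the higher (background 22.2% and 27%), with a median of -0.25. Among the 7, Rpl27l2 and Rps12l4 were dim, with mean log2 signals of 6.76 and 7.03. In Cy5, 2 of the 10 were apart in the lower and 1 in the higher direction. In the untreated Cy3 channel these counts were 0 and 6. Rpl37a, whose name the copy Rpl37al3 carries, and Rpl14 each differed by -0.37.

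At the other end of the large subunit, Rpl17 and Rpl4 were the only members of the 87 with higher, non-overlapping ratios under oxaliplatin. Rpl17 had ratios of -0.29 and -0.13 with oxaliplatin and -0.37 and -0.33 with vehicle. Rpl4 had ratios of -0.27 and -0.09 with oxaliplatin and -0.29 and -0.28 with vehicle. Both genes were below 0 on all 4 arrays, and their differences of 0.14 ± 0.12 and 0.10 ± 0.12 (limma, adjusted p = 0.619 and 0.724) were about the size of their standard errors. The second Rpl17 probe gave -0.19, of the opposite sign.

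Among small-subunit genes the lowest difference was that of Rps27l, a paralogue of Rps27 known as a target of p53, at chr8:76443658-76448593. Its ratio was 0.29 and 0.22 with oxaliplatin and 0.77 and 0.71 with vehicle. The arrays of a group lay closer to each other than to any array of the other group, and the standard error was among the smaller ones. The difference was -0.49 ± 0.11 (limma, adjusted p = 0.294). Rps27 itself had ratios of 0.34 and 0.12 with oxaliplatin and 0.47 and 0.48 with vehicle, a difference of -0.25 ± 0.13 (limma, adjusted p = 0.407).

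Rpsa encodes the protein uS2, which also serves as a laminin receptor, and lies at chr8:128728761-128732736. Its ratio was -0.27 and -0.77 with oxaliplatin and -0.09 and -0.05 with vehicle. The vehicle arrays were close together and oxaliplatin array 2 stood lowest. The difference was -0.45 ± 0.18 (limma, adjusted p = 0.322), while a second probe of the gene gave -0.03. Rpsa and Rpl24 were the 2 members that passed the adjusted threshold when oxaliplatin array 1 was left out, with differences of -0.70 and -0.87 and adjusted p = 0.0414 and 0.0395 in limma. That setting has a single oxaliplatin array, so its spread comes from the vehicle arrays alone, and it called 937 genes in all (4.11%), a larger share than 2 of 87.

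The other low small-subunit genes were Rps26 and Rps3. Rps26, which contacts messenger RNA at the exit channel, had ratios of -0.13 and -0.42 with oxaliplatin and 0.04 and 0.27 with vehicle. Rps3, which lies at the entry channel and also has a role in DNA repair, had ratios of 0.42 and 0.23 with oxaliplatin and 0.50 and 0.83 with vehicle. Neither gene's arrays overlapped between the groups, and the differences were -0.43 ± 0.15 and -0.34 ± 0.15 (limma, adjusted p = 0.308 and 0.356). A second Rps3 probe, slightly dimmer, gave -0.08 with overlapping arrays. No small-subunit gene was apart in the higher direction.

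**Figure D2:**
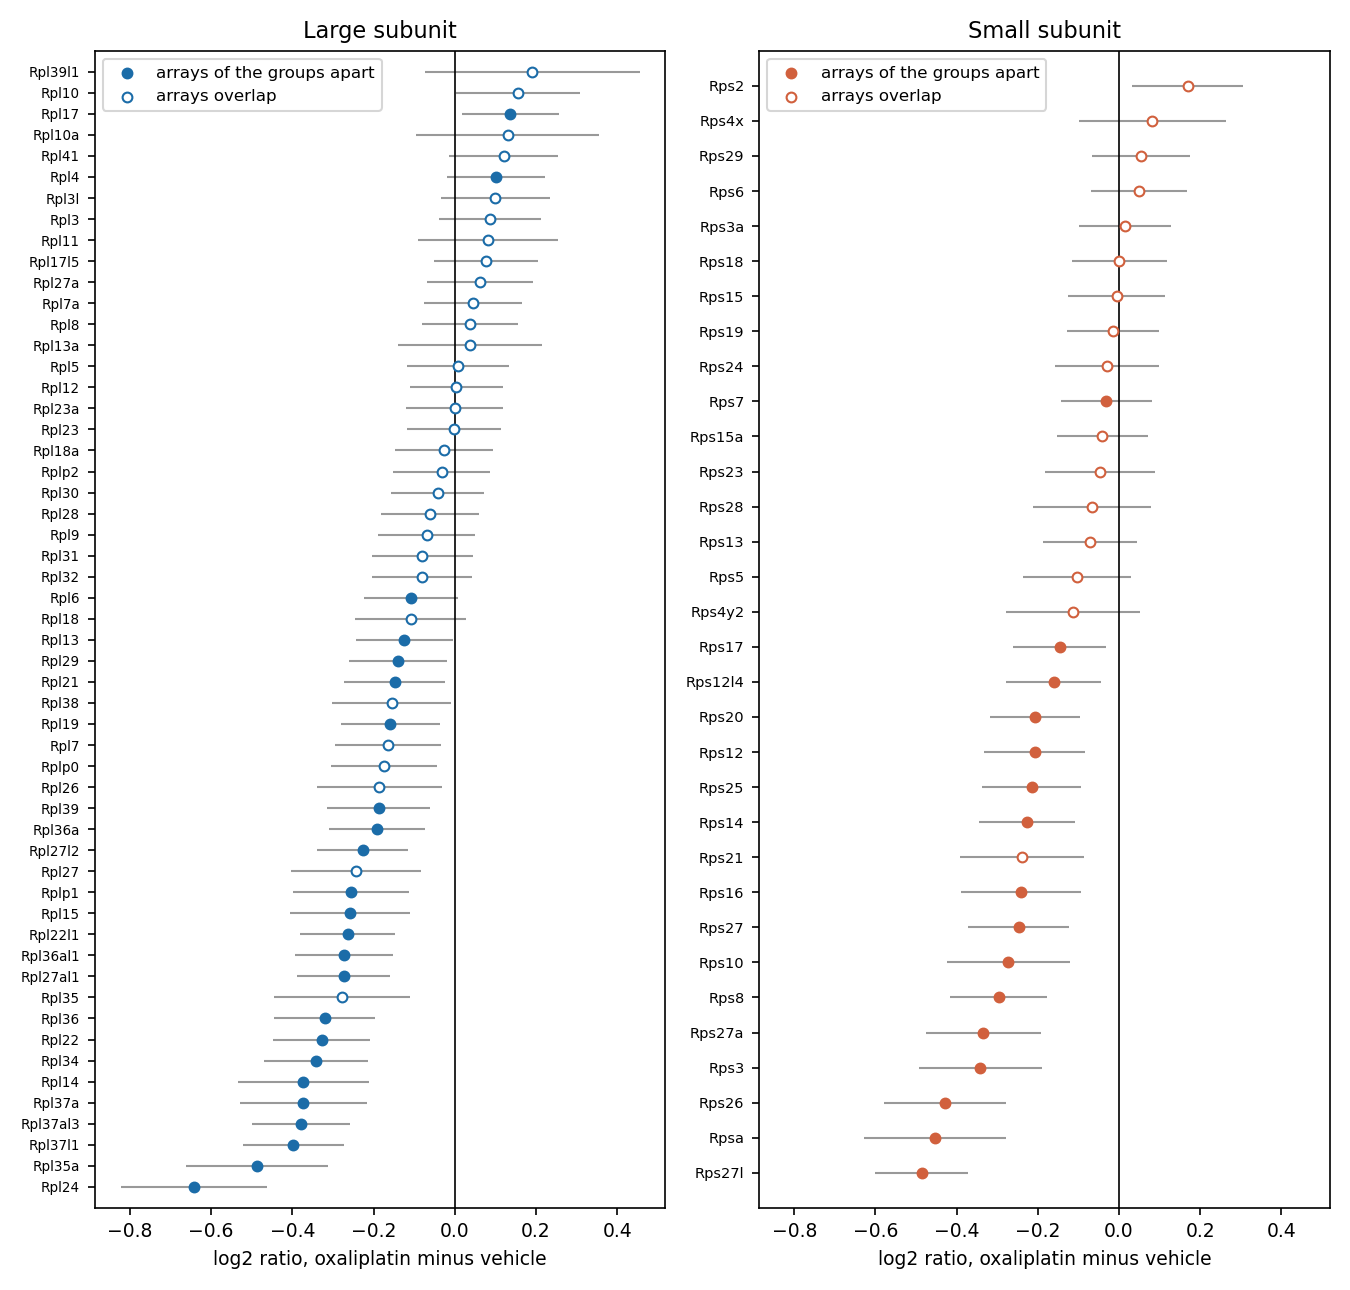
Difference in log2 Cy5/Cy3 ratio, oxaliplatin minus vehicle, for the 54 large-subunit (left) and 32 of the small-subunit (right) genes, in order of size; bars are standard errors from limma with 2 against 2 arrays. Filled points mark genes whose 2 groups of arrays do not overlap: 38 to the left of 0 and 2, Rpl17 and Rpl4, to the right.

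The members with roles outside the assembled ribosome were spread over the range. Rpl5 and Rpl11, which bind MDM2 with 5S RNA when ribosome assembly is disturbed, differed by 0.01 ± 0.13 and 0.08 ± 0.17. Rpl22 differed by -0.33 ± 0.12 and its paralogue Rpl22l1, which Rpl22 is known to repress, by -0.26 ± 0.12, both with non-overlapping arrays. Rpl13a, part of the interferon-gamma-activated inhibitor of translation, differed by 0.04 ± 0.18. Rps6, the substrate of the S6 kinases, differed by 0.05 ± 0.12. Rps27a, made as a fusion with ubiquitin, differed by -0.33 ± 0.14 and had non-overlapping arrays. None of these values passed the test.

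The stalk proteins recruit the elongation factors. Rplp0 differed by -0.17 ± 0.13 and Rplp2 by -0.03 ± 0.12, both with overlapping arrays. Rplp1 differed by -0.26 ± 0.14 without overlap. Of the core proteins used as loading references or tied to anaemia, Rps19 differed by -0.02 ± 0.11, Rps14 by -0.23 ± 0.12 and Rpl3 by 0.09 ± 0.13. The muscle paralogue Rpl3l differed by 0.10 ± 0.14 and the X-linked Rps4x by 0.08 ± 0.18. On the probes used, the arrays of Rps14 alone of these 5 did not overlap. Both other probes of Rps19 gave -0.18 without overlap. Rpl10l was not analysed here.

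Each ratio joins 2 channels, and by the labels the Cy3 channel held untreated RNA in both groups. The signals of the channels were therefore also compared, after loess and scaling of the average signal between arrays; their differences subtract to that of the ratio, so they are no separate evidence. In Cy5 the median difference of the members was -0.05 (all genes 0.00), with 34 members apart in the lower and 14 in the higher direction (background 30.2% and 29.6%). In Cy3 the median difference was 0.09 (all genes -0.02), with 28 members apart in the higher and 11 in the lower direction (background 26.9% and 31.3%). The Cy3 median was 0.18 without vehicle array 1 and 0.0074 without vehicle array 2. No member and no gene was called in either channel by limma (0 of 22821), where 4 and 8 members, and 4674 and 4761 of all genes, had an unadjusted p under 0.05. Of the 39 members with lower, non-overlapping ratios, 35 had a Cy3 difference above 0 and 23 a Cy5 difference below 0. These 39 were picked by the difference between the channels, which favours such signs: of all 87, 56 had a Cy3 difference above 0 and 56 a Cy5 difference below 0. Of all 22821 genes, 10931 had a Cy3 difference above 0 and 11529 a Cy5 difference below 0. The Cy3 difference was the larger in size for 26 of the 39 and for 59 of the 87. That share was not counted over all genes, whose differences were also wider in Cy3, with an SD of 0.48 against 0.36 in Cy5.

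Rpl24 shows the first kind. Its Cy5 signal was 16.31 and 16.39 with oxaliplatin and 16.40 and 16.39 with vehicle, on the log2 scale. Its Cy3 signal was 15.78 and 16.31 with oxaliplatin and 15.58 and 15.31 with vehicle. The Cy5 arrays overlapped and the Cy3 arrays did not, with differences of -0.05 ± 0.07 and 0.60 ± 0.23 (limma, adjusted p = 0.744 and 0.226).

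For Rps27l both channels were higher on the oxaliplatin arrays. Cy5 was 13.22 and 13.25 with oxaliplatin and 13.11 and 12.67 with vehicle. Cy3 was 12.92 and 13.03 with oxaliplatin and 12.33 and 11.95 with vehicle. The difference was 0.35 ± 0.17 in Cy5 and 0.83 ± 0.18 in Cy3 (limma, adjusted p = 0.308 and 0.170), so the lower ratio came with a larger gap in the untreated channel. Rpsa showed the same order, with 0.35 in Cy5 and 0.80 in Cy3.

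Rpl37l1 was the reverse of Rpl24. Its Cy5 signal was 14.93 and 14.87 with oxaliplatin and 15.20 and 15.40 with vehicle, a difference of -0.40 ± 0.10 (limma, adjusted p = 0.190). Its Cy3 signal was 14.98 and 15.11 with oxaliplatin and 14.92 and 15.17 with vehicle, a difference of 0.00 ± 0.17. The Cy5 arrays were apart and the Cy3 arrays overlapped.

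The largest difference in signal of any member came with a small one in the ratio. Rps4y2, annotated on chromosome 4, had Cy5 signals of 13.47 and 13.46 with oxaliplatin and 13.08 and 12.05 with vehicle. Its Cy3 signals were 13.81 and 13.93 with oxaliplatin and 13.16 and 12.55 with vehicle. Both channels were higher on both oxaliplatin arrays, by 0.90 ± 0.36 and 1.01 ± 0.23 (limma, adjusted p = 0.262 and 0.170), while the ratio differed by -0.11 ± 0.17 with overlapping arrays. In all, 13 members were apart in the higher direction in both channels, among them Rpl7a (0.42 in Cy5 and 0.38 in Cy3), and 9 in the lower direction in both, among them Rps6 (-0.30 and -0.35). Of all genes, 19.3% were apart in the higher and 20.8% in the lower direction in both channels. Across the 87 genes the Cy5 difference correlated with the Cy3 difference at r = 0.75 (all genes 0.86). That value is a description over genes that share the same 4 arrays.

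**Figure D3:**
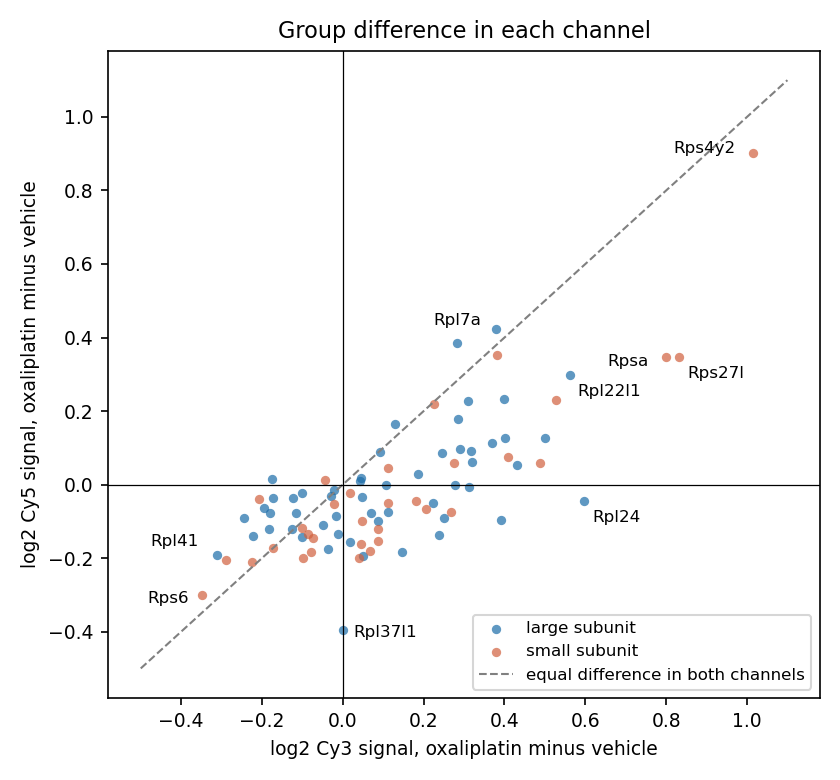
Oxaliplatin-minus-vehicle difference in log2 Cy3 signal (horizontal) and log2 Cy5 signal (vertical) for the 87 genes, blue for the large and orange for the small subunit; on the dashed line the ratio does not differ between groups. Most genes lie below the line, and Rps4y2 at 1.01 and 0.90 lies farthest along it.

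The counts of calls in the single channels depend on 1 array. Without vehicle array 1, 10 members were called in Cy5 and 4 in Cy3 by limma, against none with all arrays. Of all genes that setting called 24.4% in Cy5 and 10.1% in Cy3, larger shares than among the 87 members. In Cy3 these were Rpl22l1, Rps27l, Rps4y2 and Rpsa, all higher with oxaliplatin. Among those called in Cy5, the 8 above 0 were Rps4y2, Rpl7a, Rpl22l1, Rpsa, Rps27l, Rpl7, Rps24 and Rpl13a, while Rpl37l1 was below 0. For Rps4y2 the differences in that setting were 1.42 in Cy5 and 1.32 in Cy3 (limma, adjusted p = 0.00307 and 0.00825). There, the vehicle group is 1 array, assumed to vary as the oxaliplatin arrays do.

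The other comparison was Cy5 against Cy3 over all 4 arrays, which sets the RNA of both treated groups against untreated RNA and does not separate a treatment from the dye. Of the 87 members, 44 were higher and 20 lower in Cy5 at an adjusted p under 0.05 in limma, against a background of 29.3% and 26.3%. The median ratio was 0.19, a 1.14-fold difference, where that of all genes was 0.03. For the large subunit the median was 0.27, with 30 called above 0 and 10 below. For the small subunit it was 0.03, with 14 above and 10 below. The 20 calls below 0 became 13 without oxaliplatin array 1, 12 without vehicle array 1 and 9 without vehicle array 2. Centring each array on its median in place of loess took the median to 0.88 and the calls to 79 above and 3 below 0, so the size of the median and the number of calls depend on the normalisation, while the median of the 87 genes was above 0 in both. Before any normalisation the medians of the members were 1.77 and 2.47 on the oxaliplatin arrays and 1.44 and 1.78 on the vehicle arrays. Those of all genes were 0.92 and 1.65 with oxaliplatin and 0.63 and 0.78 with vehicle. By mean signal the median member stood at percentile 98.5 of all genes, and the part of brightness in these ratios was not tested.

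The order of the genes was alike from array to array. The ratios of the 87 genes correlated between pairs of arrays at r from 0.77 to 0.96, the lowest for oxaliplatin array 2 with vehicle array 2, and those of all genes at 0.75 to 0.93. Oxaliplatin array 1 correlated with vehicle arrays 1 and 2 at 0.96 and 0.94, and with oxaliplatin array 2 at 0.85. Over all genes these values were 0.92, 0.88 and 0.85. The 2 vehicle arrays correlated with each other at 0.95 over the members and 0.93 over all genes. The arrays share the dye orientation and a Cy3 channel of untreated RNA. Of the members, 44 were above 0 on all 4 arrays (background 34%) and 20 below 0 on all 4 (background 27.6%). The SD over genes was 0.35 on oxaliplatin array 2 and 0.40 to 0.48 on the other arrays.

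The highest ratio was that of Rpl41, whose product is a peptide of very few amino acids. It was 0.84 and 1.07 on the oxaliplatin arrays and 0.76 and 0.91 on the vehicle arrays. The mean was 0.89 ± 0.07 (standard error, 4 arrays; limma, adjusted p = 8.2e-05), which is 1.86-fold. Rpl23 followed at 0.89, then Rpl35 at 0.87, with Rps10 at 0.87 the highest of the small subunit. These neighbours lie within their standard errors of each other. Rps21 at 0.81 and Rps7 at 0.71 came next in the small subunit. The 3 probes of Rpl35 ranged from 0.11 to 0.87, so its place held for the probe used.

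The lowest ratio was that of Rpl7a. It was -0.80 and -0.75 with oxaliplatin and -0.74 and -0.91 with vehicle. The mean was -0.80 ± 0.06 (limma, adjusted p = 8.5e-05), so the Cy5 signal was 0.574 times the Cy3 signal. Rpl3 at -0.46 and Rpl27al1 at -0.35 were next in the large subunit, and Rps24 at -0.39, Rps25 at -0.39 and Rps4x at -0.35 in the small. With median centring each of these genes but Rpl7a had a mean ratio above 0. The mean ratios of the 3 Rpl27al1 probes ranged from -0.46 to 0.43, so its place also held for the probe used.

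How far a gene sat above 0 went with the group difference. Of the 44 members called above 0, 41 had a lower ratio with oxaliplatin, with a median difference of -0.18. Of the 20 called below 0, 8 did, with a median of 0.02. These shares were not counted over all genes. Over the 87 genes the difference correlated with the mean ratio at r = -0.34, and at -0.05 without oxaliplatin array 2. Over all genes the values were -0.26 and -0.06. That array had the smallest spread of ratios, and its part in the lean was not separated from that of the group. Without it, 74 of the 87 members were lower under oxaliplatin and 46.4% of all genes. When the arrays were scaled to a common spread, a setting chosen after seeing the data, 59 members were lower, against 46.6% of all genes.

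The tract at the transcript start, shown above for 9 genes, gave 2 sets with overlapping values. The 23 members with a cytosine and at least 4 pyrimidines at the annotated start had a median difference of -0.17, with 18 lower and 12 apart in the lower direction. The other 48 members with a promoter entry had a median of -0.11, with 33 lower and 20 apart in the lower direction. Of all genes, 48.8% were lower and 22.2% apart in the lower direction. Rpl37a, Rpl35a, Rpl34, Rpl22 and Rps26 carry the tract and differed by -0.37, -0.49, -0.34, -0.33 and -0.43. Of the 23, 5 had higher ratios, among them Rpl10 at 0.16, Rpl17 at 0.14 and Rpl10a at 0.13. Rpl24 and Rps27l, the lowest of each subunit, do not carry it at this position. Whether the 2 sets differ was not tested.

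Probes of 1 gene often gave other values. For 49 members more than 1 probe was kept, and each gene was represented by the probe with the highest mean signal. Between the lowest and the highest probe of a gene, the median gap was 0.15 in the group difference and 0.41 in the mean ratio. In 17 of the 49 genes the probes differed in the sign of the group difference. Spots of 1 probe on the same array differed far less, with a root-mean-square SD over probes between 0.04 and 0.06 per array.

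Rpl37a gave the widest gap in the mean ratio, with -0.28 and 0.75 from its 2 probes, although both gave a group difference of -0.37. Rpl24 gave mean ratios of -0.40 and 0.62. For Rpl17l5 the group difference was -0.86 on 1 probe and 0.08 on the other, and for Rpl14 it was -0.37 and 0.21. Rpl28 ranged from -0.06 to 0.30 and Rpl10 from -0.19 to 0.16. The sign of the Cy5 ratio of a single gene therefore held for the probe used and not always for the gene. With the mean over probes, 64 of the 87 members were lower under oxaliplatin, against 48.2% of all genes. The median ratio of the family was then 0.10.

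**Figure D4:**
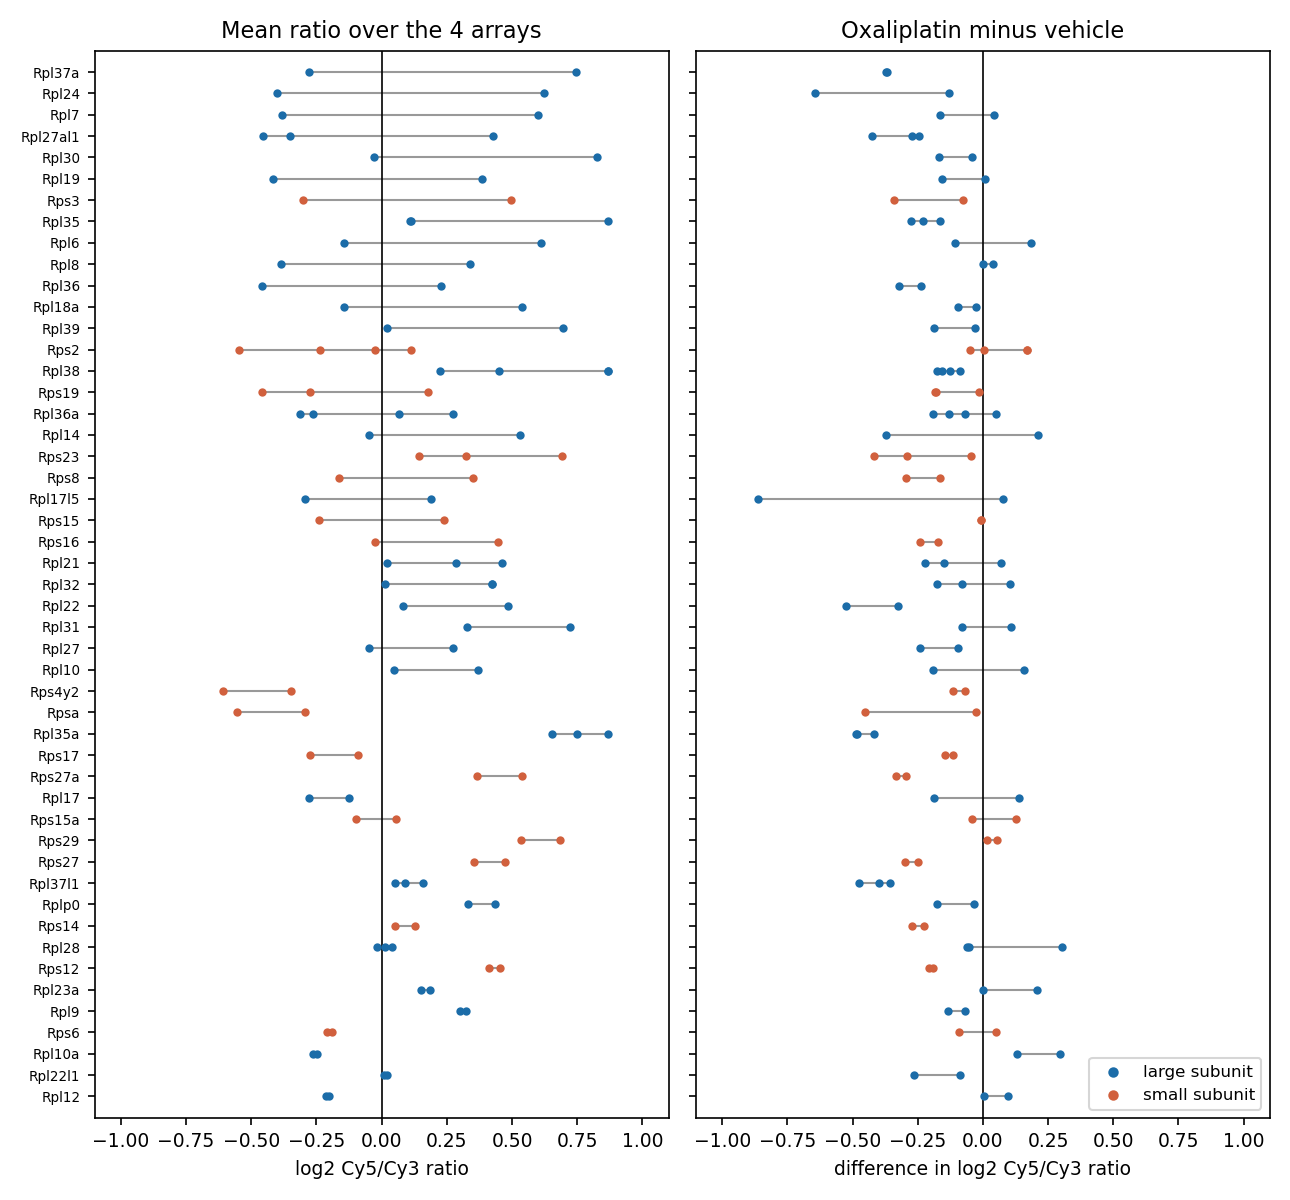
Log2 Cy5/Cy3 ratio averaged over the 4 arrays (left) and its difference, oxaliplatin minus vehicle (right), for each probe of the 49 ribosomal protein genes with more than 1 probe; a grey line joins the probes of a gene. The gaps on the left, with a median of 0.41, are wider than those on the right, with a median of 0.15.

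In Cy3, 2 members failed the scanner's test on at least 1 array. There, Rpl39l1 passed the scanner's test of being well above background on neither oxaliplatin array and on 1 vehicle array. Its Cy3 signal was 6.57 and 6.85 with oxaliplatin and 6.40 and 7.37 with vehicle, on the log2 scale, so the groups overlapped and no fold is given. Its ratio was 0.40 and 0.18 with oxaliplatin and 0.53 and -0.33 with vehicle, so the vehicle arrays had opposite signs. Rpl27l2 passed that test in Cy3 on both vehicle arrays and on a single oxaliplatin array.

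The other genes of the translation machinery were taken from fixed lists, and none passed the test. For their counts without overlap, the background is 22.2% of all genes lower and 27% higher. The 13 elongation factors and ribosome partners had a median difference of 0.16, with 5 apart in the higher and 2 in the lower direction. Eef1a2, the neuronal form of the factor that brings aminoacyl-tRNA, differed by 0.42 ± 0.13. Fau, whose product is cleaved into a ubiquitin-like peptide and a small-subunit protein, differed by 0.57 ± 0.18. Eef1b2, an exchange factor for eEF1A, differed by -0.37 ± 0.14. Rack1, a small-subunit component under another symbol, differed by 0.31 ± 0.19 with overlapping arrays.

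Of 31 initiation factors, 19 had higher and 12 lower ratios, 13 and 8 of them without overlap. Eif3l, a subunit of the eIF3 complex, differed by 0.69 ± 0.22 and Eif2b4, a subunit of the exchange factor for eIF2, by 0.54 ± 0.17. Eif4b, which aids the eIF4A helicase, differed by -0.50 ± 0.17 and Eif2s1, the alpha subunit of eIF2, by -0.31 ± 0.13. The list was split and its median was 0.12.

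Ribosome biogenesis was split as well, with 14 of 28 genes higher, 14 lower and a median of 0.01. Bop1, needed for large-subunit rRNA processing, differed by 0.57 ± 0.15 and Sbds, which helps release eIF6, by 0.49 ± 0.16. Nop56, a core protein of the box C/D snoRNPs, differed by -0.35 ± 0.12 and Nip7 by -0.48 ± 0.16. For RNA polymerase I, which transcribes the precursor of rRNA, 9 of 13 genes were lower, with a median of -0.08 and 4 apart. Its largest subunits Polr1a and Polr1b were above 0, at 0.34 ± 0.12 and 0.54 ± 0.15.

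Of the 12 genes of mTOR signalling and 5′ tract control, 8 were lower, with a median of -0.03. Tsc2, an inhibitor of mTORC1, differed by 0.48 ± 0.16 and Mtor itself by 0.39 ± 0.14. Eif4ebp2, the translation repressor most abundant in brain, differed by -0.46 ± 0.20. Of the 68 mitochondrial ribosomal protein genes, 39 were lower, 27 of them without overlap, and 12 of the 29 higher ones were without overlap. Among the 87 cytosolic members, 39 were without overlap in the lower and 2 in the higher direction. The mitochondrial median was -0.07, with Mrpl18 at -0.77 ± 0.17, Mrpl37 at -0.39 ± 0.14 and Mrpl38 at 0.44 ± 0.14. Beside these lists the cytosolic ribosomal protein genes had the lowest median, -0.11, and the difference between lists was not tested.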

How the data were processed

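Total RNA of spinal dorsal horn was hybridised, per the labels, as treated RNA (Cy5) against untreated RNA (Cy3); the labels' extraction text speaks of Cy3 labelling, so the direction of each ratio rests on the channel labels. The deposited scanner files, made by the authors with Agilent Feature Extraction 10.7.1.1 per the file headers (8.5.1.1 per the submitters' processing notes), give median spot and background intensity per channel, a log10 ratio of Cy5 over Cy3, and flags for outlier, saturated and well-above-background spots. The authors' deposited value table holds log10 ratios, within 0.0050 of the scanner's log10 ratio, already background-subtracted and dye-normalised; put on the log2 scale, it served as an alternative.

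From the intensities, limma 3.58.1 (R 4.3.3) applied normexp with an offset of 50 and loess within arrays, giving no weight to 4259 control spots and removing outlier spots (1730 were so marked on any array). Spots were averaged per probe. Probes well above background in Cy5 on at least 2 arrays were kept (26009 of 30367), and each of 22821 genes was represented by its brightest probe. Accessions were named through RefSeq (GRCr8): 18758 probes had a symbol. Groups were compared with lmFit and eBayes and Benjamini-Hochberg adjustment over all genes (residual df 2, prior df 4.74), and single channels after Aquantile scaling. An exact two-sided permutation test of 2 against 2 arrays cannot go below p = 0.333. On simulated data for this comparison with 22821 genes, 73 of 100 genes changed 2-fold and 100 of 100 changed 4-fold were called, with 6 unchanged ones.

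Members, lists and tests were chosen with earlier results of these data known. Named genes were the 4 highest and 4 lowest non-overlapping differences and the 3 highest and 3 lowest mean ratios per subunit, a fixed list of members, members near background, up to 4 genes whose probes disagreed in sign, and up to 2 genes per direction in each pathway list. Rps4y2, Rpl37l1 and others named for a channel, a probe gap or a left-out array were chosen after their values were seen. The labels pair no samples by replicate number, and the correlation of deviations between samples of 1 number was -0.22. Alternatives to the background correction, normalisation, filter and probe rule, and leaving out each array, are given in the closing section. The number of arrays limits the precision. Single values of 1 member and 1 pathway gene, which stay in the counts, are not reported here.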

Additional observations from a re-analysis of the deposited data

How the results depend on the processing

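The arrays, 2 a group on 1 slide a group, limit every group value here. A fit with the slide as a block could not be run, since each slide holds 1 group. Of the comparisons of named members under another setting, 905 kept direction and side of the threshold, 12 came to pass it, 17 no longer did and 66 turned sign, mostly in values near 0. No filter on dim probes, no background correction and loess without the ribosomal protein spots (added after seeing the data) changed no count of calls by over 1.5 times and no family median beyond the spread between replicates.

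The median group difference of the 87 genes was -0.055 with median centring, -0.16 both with the scanner's log ratio and with the authors' value table, and -0.092 with arrays scaled to a common spread, which was also added after seeing the data. It ranged from -0.17 to -0.068 when 1 array was left out. With median centring, the median Cy5/Cy3 ratio was 0.88 (large subunit 0.96, small 0.81), with 79 members called above and 3 below 0. With the mean over probes it was 0.10 (large subunit 0.14). A fit with the replicate number as a block called 3 genes in the ratio and no member. The labels do not pair these samples.

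With 1 array left out, 2 to 937 genes and 0 to 2 members were called in the ratio, the highest without oxaliplatin array 1. In Cy5, 0 to 5576 genes and 0 to 10 members were called, and in Cy3 0 to 2311 genes and 0 to 4 members, the highest without vehicle array 1. The Cy3 median ranged from 0.0074 to 0.18, and members called below 0 over all arrays from 9 to 19, the fewest without vehicle array 2. The causes were not tested.

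These mean ratios turned sign with median centring: Rpl11 0.55, Rpl13a 0.73, Rpl17 0.39, Rpl17l5 0.24, Rpl27al1 0.44, Rpl28 0.71, Rpl3 0.37, Rpl3l -0.095, Rpl4 0.58, Rpl5 0.56, Rps19 0.50, Rps24 0.26, Rps25 0.12, Rps26 0.33, Rps4x 0.086, Rps6 0.53 and Rpsa 0.33. The group differences that did so were Rpl23 0.090, Rpl28 0.0074, Rpl3l -0.15, Rplp2 0.045, Rps19 0.044, Rps24 0.13 and Rps7 0.041. With the scanner's log ratio and the authors' table alike, the mean ratio was -0.034 for Rpl22l1 and -0.016 for Rpl37al3, and the difference -0.020 for Rps6. With the mean over probes, the mean ratio of Rpl28 was 0.012, and the differences were Rpl10 -0.019, Rpl17 -0.026, Rpl17l5 -0.39, Rpl28 0.063 and Rps6 -0.021. With a common spread, the mean ratio of Rpl22l1 was -0.0022, and the differences were Rpl23 0.12, Rpl7a -0.065, Rplp2 0.039 and Rps7 0.067.

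Leaving out 1 array turned these mean ratios: Rpl10 from -0.041 to 0.13, Rpl13a from -0.22 to 0.036, Rpl22l1 from -0.024 to 0.038, Rpl28 from -0.048 to 0.013, Rplp1 from -0.032 to 0.13 and Rps26 from -0.13 to 0.011. It turned these differences: Rpl10 from -0.017 to 0.33, Rpl11 from -0.16 to 0.32, Rpl13a from -0.21 to 0.29, Rpl17l5 from -0.039 to 0.19, Rpl23 from -0.062 to 0.058, Rpl28 from -0.12 to 0.000805, Rpl3 from -0.0142 to 0.19, Rpl3l from -0.038 to 0.24, Rpl5 from -0.096 to 0.11, Rpl7a from -0.043 to 0.13, Rplp2 from -0.11 to 0.049, Rps19 from -0.063 to 0.032, Rps24 from -0.12 to 0.061, Rps4x from -0.18 to 0.34 and Rps6 from -0.020 to 0.12.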
